A study of Mus musculus with 4 samples.

Results

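The Flt3+ Cd34+ progenitors of the mouse fetal liver are defined here by transcripts in single cells. A barcode was a member when it held at least 1 UMI (unique molecular identifier, 1 captured transcript) of Flt3 and of Cd34, at most 1 UMI of Csf1r, and 0 UMIs of Rag1, Il7r and Hlf. Barcodes with under 500 genes, or with over 10% of UMIs from mitochondrial genes, were left out. This rule gave 860 members among 10641 barcodes at E13.5 (E for embryonic day) and 375 among 11702 at E14.5, so 1235 of 22343 fetal liver barcodes and of 31153 barcodes in all 4 libraries. Both fetal liver libraries came from C57BL/6J embryos (C57 Bl/6 in another label), with no transgene or treatment named. CD45+ cells were enriched on magnetic beads, and live cells that were CD45+, F4/80- and IL7Ra+, which the labels name lymphoid tissue inducer cells, were sorted for version 3 of the 10x Genomics 3' kit. The study's other pair of libraries, from the embryonic periphery at the same stages, was made with version 2 of that kit.

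Flt3 encodes the receptor of Flt3 ligand, and Cd34 a sialomucin of immature blood and endothelial cells. Multipotent progenitors that gain Flt3 keep the potential for lymphocytes, granulocytes and monocytes while losing that for megakaryocytes and red cells, and are then called lymphoid-primed. Such cells start to transcribe genes of several lineages at low levels before they commit. The fetal liver is the main site of blood formation at this time of gestation, and its IL7Ra+ progenitors give rise to B cells, T cell precursors that seed the thymus and innate lymphoid cells, including lymphoid tissue inducer cells. The other genes of the rule mark the neighbours of this stage: Hlf the stem and earliest multipotent cells, Il7r the lymphoid progenitors, Rag1 the cells that begin to rearrange antigen receptors, and Csf1r the monocyte and dendritic branch. Flt3 lies on chromosome 5 of GRCm38/mm10 (chr5:147330741-147400489, minus strand) and Cd34 on chromosome 1 (chr1:194938819-194961279, plus strand), both protein-coding genes in the GENCODE M21 annotation.

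Each group was 1 library, so no difference has a replicate check, no test was made, and every interval covers counting error only. Nothing in the labels gives the number of embryos behind a library. The cells were sorted for IL7Ra protein, yet the rule asks for 0 Il7r UMIs. At the members' median depth of 16663.5 UMIs (E13.5) and 15810 UMIs (E14.5), 1 UMI stood for 60.0 and 63.3 CPM (UMIs of a gene per 1e6 UMIs summed over the cells). A cell that transcribes Il7r weakly and one that does not cannot be told apart from a count of 0. The libraries shared 29 barcode sequences, none of which was a member in both. Scrublet marked 418 barcodes at E13.5 and 869 at E14.5 as doublets, among them 10 members (1.16%) and 8 members (2.13%), which the rule keeps.

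Members were 8.08% of E13.5 barcodes (95% interval 7.57 to 8.62) and 3.20% of E14.5 barcodes (2.89 to 3.54). The make-up of the libraries differed as well. Barcodes with a UMI of both Flt3 and Cd34, whatever the other criteria, were 80.0% (8517) at E13.5 and 41.2% (4827) at E14.5. Barcodes with at least 5 Cd79a UMIs and none of Flt3 and Cd34 numbered 95 and 2198. The part of this make-up in the lower share of members at E14.5 was not tested. The share of members also varied with depth. When every cell was first thinned to 5000 UMIs, the shares were 21.4% (20.7 to 22.2) and 8.24% (7.73 to 8.77). The E13.5 share was the higher one under each of the 6 alternative filters tried. With at least 2 UMIs of both Flt3 and Cd34 the shares were 6.14% and 2.31%. A median member carried 3 Flt3 UMIs at either stage, and 8 Cd34 UMIs at E13.5 against 6 at E14.5. Only 1 Flt3 UMI supported 169 members at E13.5 and 75 at E14.5, and only 1 Cd34 UMI supported 63 and 53.

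The label of lymphoid-primed multipotent cells was checked against 13 markers, of which 11 were outside the rule. All but 1 of these 11 were detected, and 10 passed 10 CPM in at least 1 library. None of the 10 differed by 2-fold in both libraries from the nearest cells, which each differ in 1 criterion. Against cells with an Il7r UMI, 2 were higher and 7 lower in members in both libraries (median log2 folds -0.17 and -0.11). Against cells with an Hlf UMI 2 were higher and 1 lower (0.10 and -0.04). Against cells with at least 2 Csf1r UMIs 6 were higher and 4 lower (0.11 and 0.22). The shares of all genes higher or lower in both libraries were not computed for these comparisons. Mef2c, a transcription factor of lymphoid priming, stood at 525 CPM (514 to 537) at E13.5 and 495 CPM (478 to 513) at E14.5, with a UMI in 96.6 and 95.2% of members. Bcl11a, needed for lymphoid development, stood at 246 CPM (238 to 254) and 242 CPM (229 to 254). Ikzf1, which encodes the lymphoid regulator Ikaros, stood at 160.0 CPM (153 to 167) and 160.2 CPM (150.3 to 170.5). For these 3 genes the counting intervals of the stages overlapped. Spi1, which encodes PU.1 of the myeloid and lymphoid branches, was at 229 CPM (221 to 237) and 193 CPM (182 to 204). Satb1, a chromatin organizer of early lymphoid cells, was at 147 and 158 CPM, and Notch1, the receptor that starts the T cell programme, at 71.8 and 66.2 CPM. Kit, the stem cell factor receptor, was low at 36.3 CPM (33.3 to 39.6) and 25.4 CPM (21.6 to 29.8). Cd48, a surface marker that stem cells lack, was higher at E14.5 with 131 CPM (123 to 141) against 90.4 (85.6 to 95.5).

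**Figure D1:**
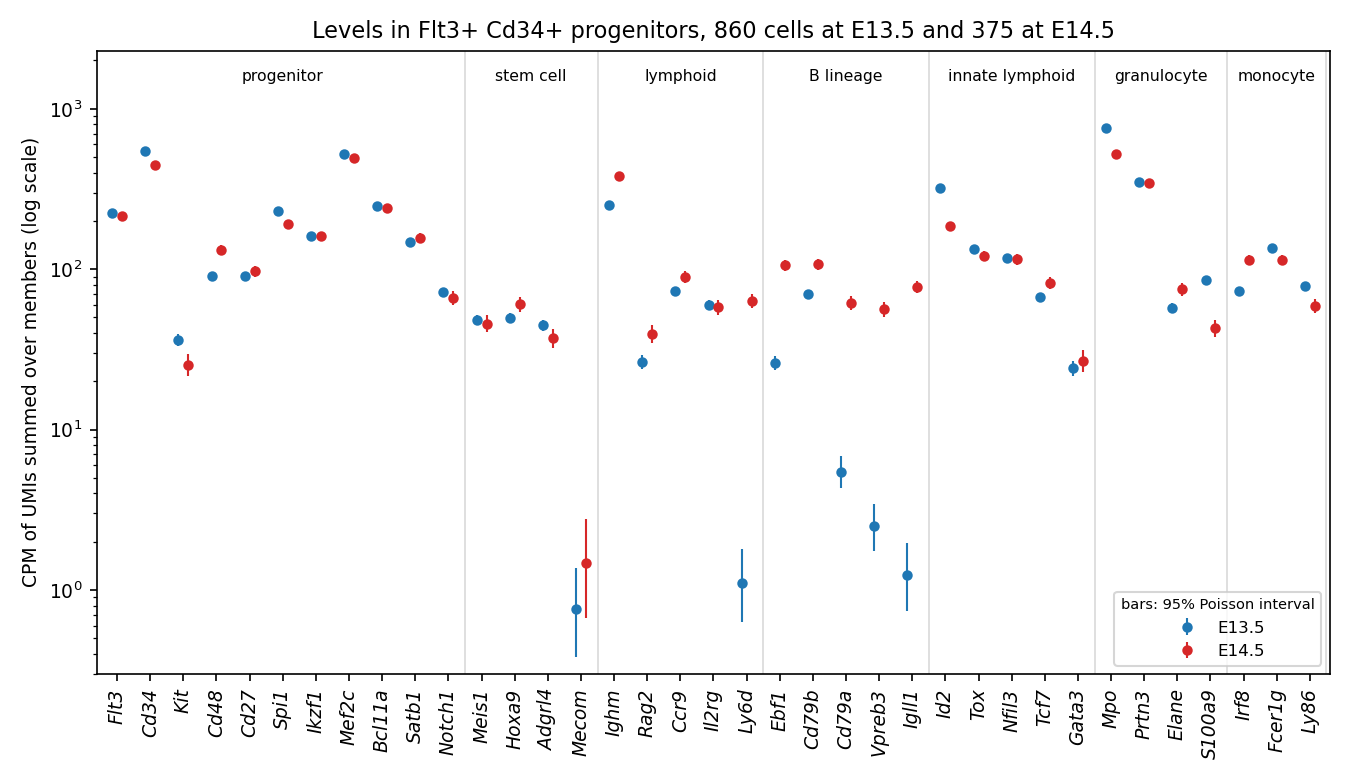
CPM of UMIs summed over the members (log axis) for genes grouped by lineage, with E13.5 in blue and E14.5 in red and bars for 95% Poisson intervals. Progenitor genes such as Mef2c (525 and 495 CPM) lie side by side, while Igll1 (1.25 and 77.5 CPM) and Ly6d (1.11 and 63.4 CPM) are far apart.

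Dntt, the terminal transferase gene that usually marks the lymphoid-primed subset in adult marrow, was the exception. It had 0 UMIs in all 860 and 375 members, which allows a share of cells with a UMI of up to 0.349% and 0.8%. Over each whole fetal liver library 6 and 7 barcodes held a Dntt UMI. Multipotency itself is a property of cell output and was not measured. Genes of the stem cell list apart from Hlf stood at a summed 191 and 197 CPM over 17 genes. Of these the homeobox genes Meis1 and Hoxa9 stood at 48.3 and 49.7 CPM at E13.5 and 45.8 and 60.3 CPM at E14.5. Mecom, a stem cell regulator, was at 0.763 and 1.47 CPM and Procr at 0.208 and 0.489 CPM. The 8 macrophage markers summed to 1.87 and 3.42 CPM with C1qa at 0 in both libraries, and Alb, Apoa1 and Ttr of hepatocytes also had 0 UMIs.

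Transcripts of several lineages were present in the same population. On the granulocyte side, Mpo, which encodes myeloperoxidase, stood at 756 CPM (742 to 770.2) at E13.5 and 523 CPM (505 to 541) at E14.5. Prtn3, which encodes proteinase 3, was at 351 CPM (341 to 361) and 345 CPM (331 to 360.5). On the lymphoid side, Ighm, whose unrearranged locus is transcribed early, was at 250.2 CPM (242 to 258) and 381 CPM (365 to 396). Rag2, the partner of Rag1, was at 26.5 and 39.6 CPM, and the thymus homing receptor gene Ccr9 at 72.9 and 89.4 CPM. Among genes of innate lymphoid cells, Id2, an inhibitor of E proteins, was at 320.0 CPM (311 to 329) and 185 CPM (174 to 196), Tox at 133 and 121 CPM, Nfil3 at 117 and 115 CPM and Tcf7 at 67.1 and 81.9 CPM. Hmga2, a fetal chromatin protein gene, was among the most abundant of the listed genes at 569 CPM (557 to 581) and 588 CPM (569 to 608), and Igf2bp3, another fetal gene, stood at 146 and 137 CPM. The 9 T lineage genes summed to 90.7 and 100.5 CPM, of which 3 were measured. These were the kinase gene Lck at 39.9 and 42.1 CPM, the receptor constant region gene Trbc1 at 32.5 and 27.6 CPM, and the adaptor gene Lat at 13.2 and 22.7 CPM. Cd3e, a chain of the T cell receptor complex, was at 0.139 and 0.163 CPM and the T cell factor gene Bcl11b at 0.139 and 0.326 CPM.

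To compare shares of cells, members were thinned to 5000 UMIs, which kept 820 at E13.5 and 353 at E14.5. An Mpo UMI was then found in 57.3% of members at E13.5 and 56.9% at E14.5 (71.0 and 71.7% without thinning). For background RNA at E14.5, the 175 barcodes with at least 3 Cxcr6 UMIs and none of Flt3 and Cd34 gave 6.02% after thinning, at a median depth of 10540 UMIs against 15810 in members. An Ighm UMI was found in 58.0 and 72.2% of members (81.6 and 88.3% without thinning), where at E14.5 the Cxcr6-high barcodes gave 47.6% (39.8 to 55.5) and 355 barcodes rich in the basophil protease gene Mcpt8 gave 13.7%, at a median depth of 10088 UMIs. Mpo could not be read against the Mcpt8-high set, of which 92.3% held a UMI. The E14.5 shares of members were above these references for both genes, and for Ighm the Cxcr6-high set lay far nearer to the members than the Mcpt8-high set did. Ighm and Mpo occurred together in 34.5% of members at E13.5 (31.3 to 37.9) and 44.8% at E14.5 (39.5 to 50.1), close to the products of the single shares, 33.3 and 41.1%. The pair of Mpo and Prtn3 was above its product, at 34.4% (31.1 to 37.8) against 24.7% and 31.7% (26.9 to 36.9) against 21.0%. The pair of Mpo and Ccr9 was below its product, at 7.68% (5.95 to 9.72) against 13.001% and 7.37% (4.87 to 10.6) against 13.4%. The pair of Mpo and Tcf7 was also below its product, at 4.27% (2.99 to 5.89) against 7.34% and 3.40% (1.77 to 5.86) against 7.58%. Id2 and Tcf7 were found together in 9.76 and 10.8% of members, above products of 5.64 and 4.75%. The cells of a stage share 1 library, so the pairs are given without a test.

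Genes differed in how evenly they were spread over the members. Mef2c, Spi1, Hmga2 and Ighm had a UMI in over 80% of members at both stages, and the 5% of members with most UMIs of each gene held between 13.02 and 19.7% of its UMIs. Prtn3 was found in 61.2 and 56.5% of members, but 55.9 and 59.0% of its UMIs came from that highest 5%. Mpo lay between these, with 40.8 and 34.7% of UMIs in the highest 5% and a median of 4 UMIs a cell. Tcf7 was restricted to 18.0 and 17.3% of members, and 70.2 and 65.7% of its UMIs came from the highest 5%. Stfa1, Elane, Prtn3, S100a9 and S100a8, genes of granules and cytoplasm of neutrophils, had the highest ratios of variance to mean at 5000 UMIs, between 16.6 and 32.4 in the library with the lower ratio, where the median of 7118 genes was 1.03.

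**Figure D2:**
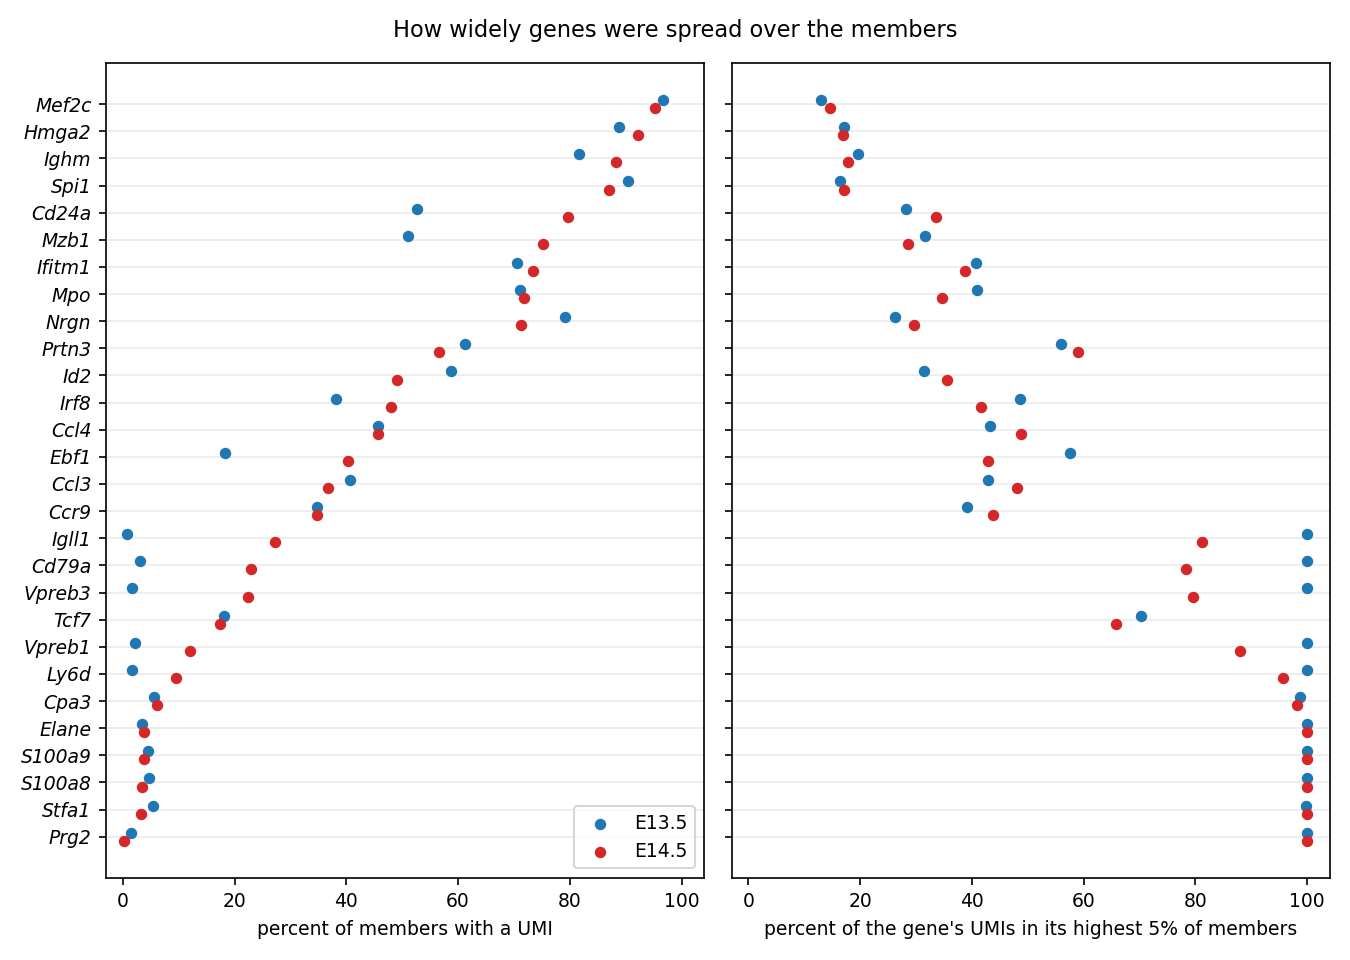
For each gene, the left panel gives the percent of members with a UMI and the right panel the percent of its UMIs found in the 5% of members with most UMIs, with E13.5 in blue and E14.5 in red. Mef2c and Spi1 were spread over most members. Elane and S100a9 had a UMI in under 5% of members, so all their UMIs lie in the highest 5% by construction.

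Elane, the neutrophil elastase gene, had a UMI in 3.49 and 3.73% of members, with up to 159 and 163 UMIs in a single cell. Because under 5% of members held it, all its UMIs lie in the highest 5% by construction. Taking 5 UMIs summed over Elane, S100a8, S100a9 and Stfa1 as a limit, 15 members (1.74%) at E13.5 and 5 (1.33%) at E14.5 passed it. Of the 15, 12 had a single Flt3 UMI, against 169 of all 860, and Scrublet marked 3 of them. Of the 5 at E14.5, 2 had a single Flt3 UMI, against 75 of all 375, and Scrublet marked 2. The same limit for Igll1, Ly6d, Cd79a, Vpreb1 and Vpreb3, genes of early B cells, was passed by 5 members (0.581%) at E13.5 and 29 (7.73%) at E14.5. Of these 29, 24 had at most 3 Cd34 UMIs, and Scrublet marked 1. A count of 5 or more UMIs of Cpa3, the mast cell carboxypeptidase gene, was found in 22 (2.56%) and 16 members (4.27%), and of Prg2 and Prg3, granule protein genes of eosinophils, in 3 and 1. In all, 41 members (4.77%) at E13.5 and 50 (13.3%) at E14.5 passed at least 1 of these limits, which were set after the data had been seen. The other 819 and 325 members passed none of these 4 limits.

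The values just inside and just outside each criterion follow. At E13.5, 306 barcodes met every criterion but had no Flt3 UMI, and in them Mpo stood at 5646 CPM and Elane at 1048 CPM. Members with 1 Flt3 UMI held 1589 CPM of Mpo and 312 CPM of Elane, and members with 8 or more held 449.8 and 0.646 CPM. At E14.5 Elane stepped from 1958 CPM at 0 Flt3 UMIs to 183 CPM at 1 and 3.36 CPM at 8 or more, while Mpo stood at 3780, 563 and 645 CPM. On the Cd34 side, 164 barcodes at E14.5 had no Cd34 UMI but met the rest, with Igll1 at 895 CPM and Ebf1 at 526 CPM. Members with 1 Cd34 UMI held 525 and 396 CPM of Igll1 and Ebf1, and those with 8 or more 14.49 and 42.0 CPM. Hmga2 went the other way, with 205 CPM at 0 Cd34 UMIs, 314 CPM at 1 and 696 CPM at 8 or more. Median depth was also higher in the members with 8 or more Cd34 UMIs, at 18972 UMIs against 12268 with 1, and its part in these steps was not tested. Barcodes just outside the Rag1 criterion, with 1 Rag1 UMI, numbered 18 at E13.5 and 33 at E14.5, and the latter held 461 CPM of Ebf1 and 105 CPM of Rag2.

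Between stages, the genes with the highest folds at E14.5 included several of the early B cell programme. Over the 7623 genes that reached 10 CPM at 1 stage or both, 21 (0.275%) were at least 2-fold higher at E14.5 and 5 (0.0656%) at least 2-fold lower, with 5 CPM added to both sides and the all-gene median taken off. Counting intervals were apart for 647 genes higher at E14.5 (8.49%) and 575 lower (7.54%). Igll1 and Vpreb1 encode parts of the receptor that pre-B cells carry before a light chain is made. Igll1 stood at 1.25 CPM (0.740 to 1.97) at E13.5 and 77.5 CPM (70.7 to 84.8) at E14.5 (log2 fold 3.73), and Vpreb1 at 1.94 (1.29 to 2.81) and 35.4 CPM (30.8 to 40.4) (2.55). Vpreb3 stood at 2.50 and 56.4 CPM (3.04), and Cd79a, a signalling chain of the same receptor, at 5.48 and 61.7 CPM (2.68). Ebf1, the transcription factor that starts the B cell programme, was at 26.1 CPM (23.6 to 28.9) and 106 CPM (98.0 to 114) (1.84). Ly6d, a surface marker of B-biased lymphoid progenitors, was at 1.11 and 63.4 CPM (3.49). Mzb1, an endoplasmic reticulum protein gene, was at 100.2 and 268 CPM (1.38) and Cd24a, a surface glycoprotein gene, at 108 and 275 CPM (1.32). Of the 11 B lineage genes 7 were measured outside the rule, all 7 were higher at E14.5 with intervals apart, 6 of them at least 2-fold, and their median log2 fold was 2.55, where that of all genes is 0 by construction.

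**Figure D3:**
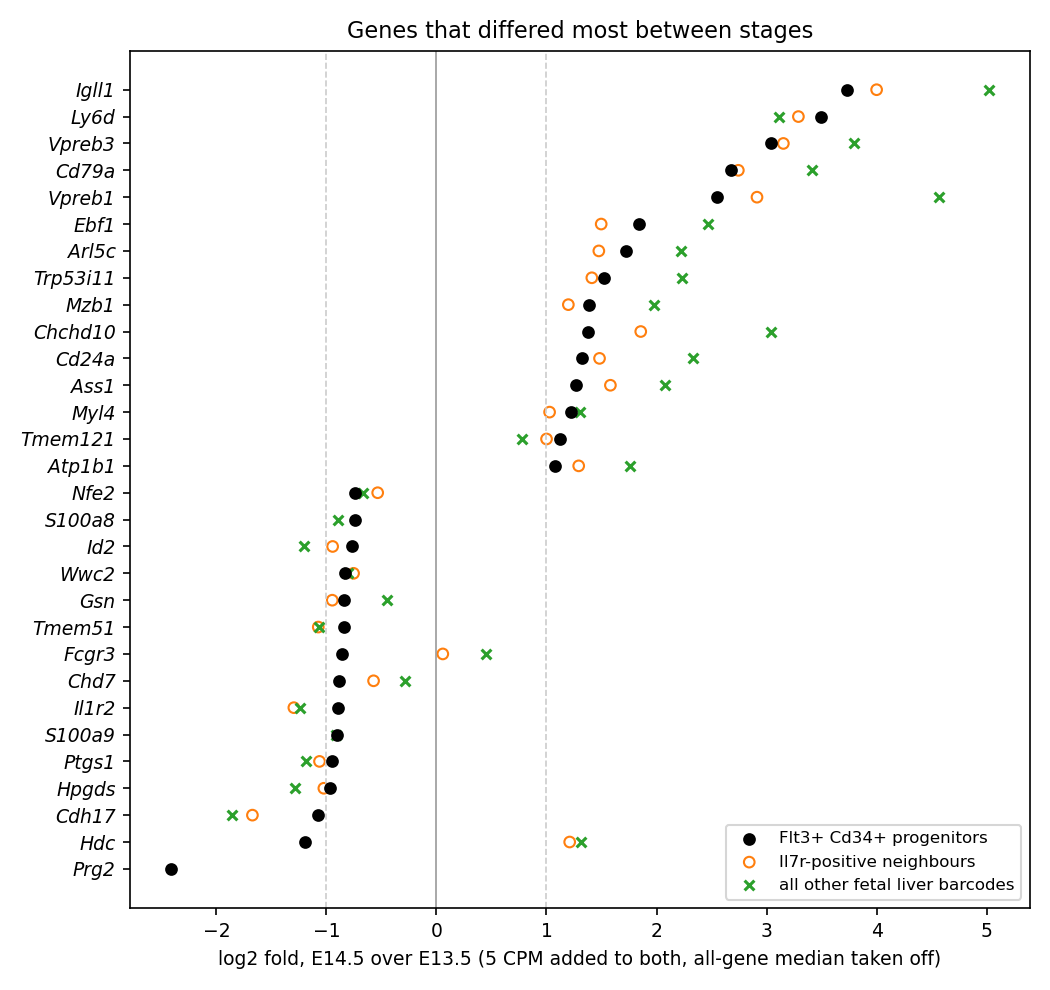
log2 fold of E14.5 over E13.5 for the 30 genes named by rule, in the members (black), in Il7r-positive neighbours (orange circles) and in all other fetal liver barcodes (green crosses), with dashed lines at 2-fold. Igll1 was at 3.73 in members and 5.02 in the other barcodes, and Hdc at -1.19 and 1.31.

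The same genes were higher at E14.5 in the rest of the liver library, with log2 folds of 5.02 for Igll1, 4.57 for Vpreb1 and 2.47 for Ebf1 over the barcodes that were not members. Their levels in members were read against other barcodes in the same library without a Flt3 UMI, chosen for high counts of Mcpt8, Cxcr6 or Elane. The Mcpt8-high and Cxcr6-high sets also had no Cd34 UMI. The Elane-high set, with at least 5 Elane UMIs, had no limit on Cd34, and some members hold Elane UMIs too. Igll1 at 77.5 CPM in members was below its 95.5 CPM (86.1 to 106) in Mcpt8-high, 185 CPM (167 to 204) in Cxcr6-high and 184 CPM (167 to 202) in Elane-high barcodes. Vpreb3, at 56.4 CPM, and Cd79a, at 61.7 CPM, were within the range of those 3 sets or below it, between 56.7 and 93.4 CPM for the first and between 38.6 and 83.9 CPM for the second. Vpreb1, at 35.4 CPM, was close to the 32.8 CPM of the Mcpt8-high set and below the other 2 sets. For these 4 genes the E14.5 level in members was no higher than in at least 2 of the 3 sets. The level of members was not even over cells: the highest 5%, 19 cells, held 81.3% of Igll1, 88.0% of Vpreb1, 79.5% of Vpreb3 and 78.3% of Cd79a UMIs. The part of free RNA in these levels was not tested. For Ebf1, the 106 CPM of members lay above 56.7 CPM in Mcpt8-high and 89.2 CPM in Cxcr6-high barcodes and below 118 CPM in Elane-high barcodes, and after thinning 27.8% of members held a UMI against 6.85% of Mcpt8-high, 8.43% of Cxcr6-high and 16.8% of Elane-high barcodes. Mzb1 at 268 CPM (255 to 281), Ighm at 381 CPM (365 to 396), Cd24a at 275 CPM (262 to 288) and Ly6d at 63.4 CPM (57.3 to 70.1) were above all 3 reference sets, whose highest levels were 156, 236, 193 and 37.1 CPM, and the highest 5% of members held 95.6% of Ly6d UMIs. At E13.5 Igll1 was at 0 CPM in Mcpt8-high and Cxcr6-high barcodes, which numbered only 9 and 15, and at 0.879 CPM in 174 Elane-high barcodes.

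**Figure D4:**
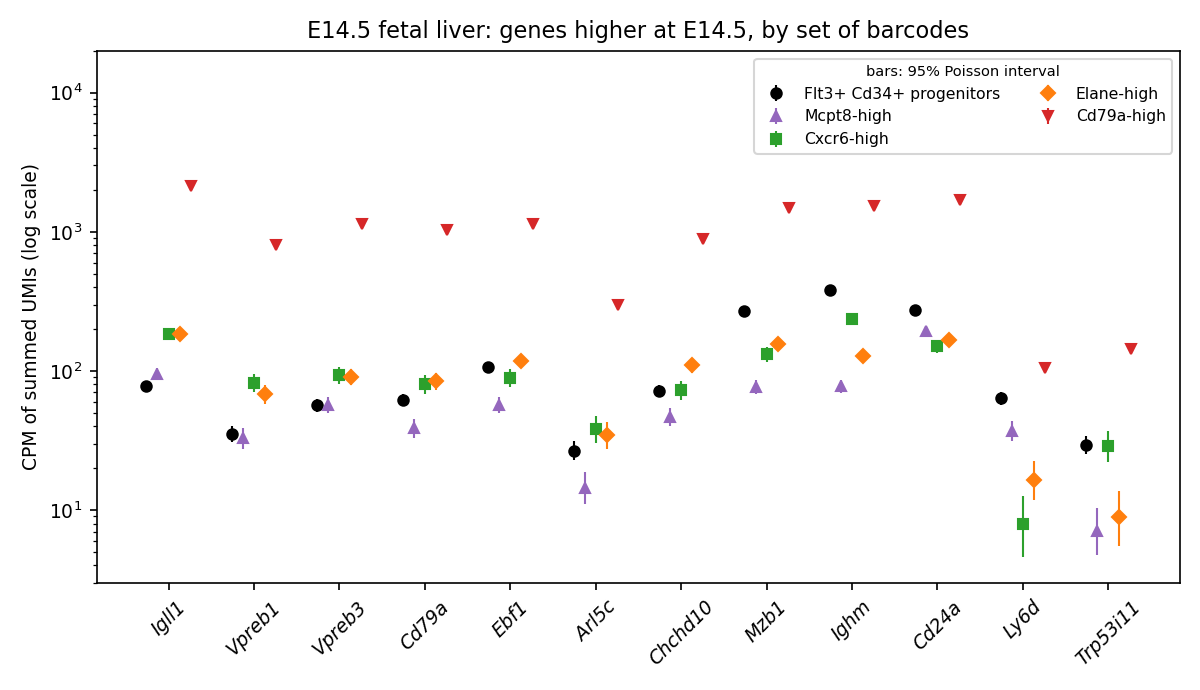
CPM (log axis) at E14.5 of genes that were higher at that stage, in the members and in barcodes rich in Mcpt8, Cxcr6, Elane or Cd79a, with 95% Poisson intervals. Igll1 lies lower in members (77.5 CPM) than in the Mcpt8-high, Cxcr6-high and Elane-high sets, while Mzb1 (268 CPM) and Ighm (381 CPM) lie above them, and Cd79a-high barcodes are highest for each gene.

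Genes lower at E14.5 were fewer and had smaller folds. Cdh17, a cadherin gene, stood at 66.3 CPM (62.2 to 70.7) at E13.5 and 28.7 CPM (24.6 to 33.3) at E14.5 (log2 fold -1.07), with a UMI in 46.5 and 23.5% of members. The prostaglandin enzyme genes Hpgds (27.0 and 11.3 CPM) and Ptgs1 (44.7 and 20.6 CPM) had log2 folds of -0.97 and -0.95. Chd7, which encodes a chromatin remodeller, was at 53.6 and 26.6 CPM (-0.88), and Id2 at 320.0 and 185 CPM (-0.77). Each of these 5 genes was lower at E14.5 in the Il7r-positive neighbours as well, with log2 folds between -1.67 for Cdh17 and -0.57 for Chd7. Prg2 had the lowest fold, with 26.1 CPM (23.5 to 28.9) and 0.815 CPM (0.265 to 1.90), but its UMIs came from 12 members at E13.5 and 1 at E14.5. S100a9 (85.2 and 43.1 CPM) and S100a8 (89.1 and 50.9 CPM) were also lower, and with at least 2 UMIs of Flt3 and of Cd34 their direction turned, from -0.90 to 2.69 and from -0.74 to 2.80 on the log2 scale. The order of the stages for these neutrophil genes therefore depends on few cells.

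Other gene lists held members in both directions. Over all 7623 measured genes, intervals were apart for 8.49% higher at E14.5 and 7.54% lower, the background for the counts below. The 10 measured lymphoid-primed markers outside the rule split evenly, 5 higher and 5 lower, with none at 2-fold, intervals apart for 2 of the higher and 3 of the lower, and a median log2 fold of -0.00. Transcription factors of lineage choice, 32 of 39 measured, were higher for 20 and lower for 12, with none at 2-fold, intervals apart for 11 of the higher and 6 of the lower, and a median of 0.04. The medians near 0 thus cover genes with folds of opposite sign. Of 14 measured genes of lymphoid priming 11 were higher at E14.5, with intervals apart for 8 of these and for 1 lower gene. Among the transcription factors Sox4, a factor of lymphoid progenitors, was at 413 and 482 CPM and Runx3 at 139 and 143 CPM. Lmo2, a stem cell and lymphoid factor, was at 177 CPM (170.2 to 184) and 128 CPM (119 to 137). Of 17 measured cytokine receptor genes 14 were lower at E14.5, with a median of -0.18 and intervals apart for 3. The plasmacytoid list had 6 measured genes, all higher at E14.5, with a median of 0.61 and intervals apart for 5. Its members Bst2 (93.7 and 154 CPM) and Cox6a2 (63.3 and 96.9 CPM) are also expressed by lymphoid progenitors, and its regulator Tcf4 was at 102 and 113 CPM. In the homing list 6 of 13 measured genes were higher at E14.5 and 7 lower, with a median of -0.09 and intervals apart for 3 and 6. Itgb7, the integrin chain of gut homing, was at 77.1 and 46.5 CPM, Ccr7 at 44.7 and 28.5 CPM, and Itga4 at 227 and 212 CPM. Ccr9 of the same list was higher at E14.5, at 72.9 and 89.4 CPM. S phase genes were higher for 14 of 18 (median 0.08) and genes of G2 and M phase lower for 16 of 18 (median -0.15), with no gene of either list at 2-fold. Of 10 measured immediate early and heat shock genes 7 were higher at E14.5 and 3 lower, with intervals apart for 6 and 1. Their median was 0.22 in members and 0.22 in the other fetal liver barcodes. Among the higher ones Junb was at 178 and 265 CPM and Ier2 at 271 and 394 CPM.

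The nearest cells by the rule were compared next, each set differing from the members in 1 criterion. Because the criterion itself chose both sides, these are descriptions, and the 6 genes of the rule were left out. Listed genes are counted by direction here and in the next comparisons. The share of all genes with the same direction in both libraries was not computed, though the all-gene median was 0 by construction. Il7r-positive neighbours numbered 3603 at E13.5 and 2306 at E14.5, more than the members. Of 7426 genes, 6 (0.0808%) were at least 2-fold higher and 1 (0.0135%) at least 2-fold lower in members in both libraries. The higher genes were led by S100a9, Stfa1, S100a8 and Elane, and with at least 2 UMIs of Flt3 and of Cd34 the count was 0. Arpp21 was the gene lower by 2-fold, at 13.9 against 33.7 CPM at E13.5 and 28.5 against 67.3 CPM at E14.5. Genes of the lymphoid list were lower in members for 11 of 12 in both libraries, with medians of -0.35 and -0.35. Ebf1 was at 26.1 against 72.3 CPM (log2 fold -1.30) and 106 against 212 CPM (-0.96), Rag2 at 26.5 against 49.4 CPM and 39.6 against 65.6 CPM, and Cox6a2 at 63.3 against 129 CPM and 96.9 against 183 CPM. Members were higher in Id2 (320.0 against 227 CPM and 185 against 115 CPM), Id1 (61.8 against 31.9 CPM and 51.5 against 36.9 CPM), the survival gene Bcl2 (92.3 against 67.9 CPM and 128 against 85.1 CPM) and Prtn3 (351 against 193 CPM and 345 against 214 CPM). The Prtn3 level was uneven over members, at 1007 CPM with 1 Flt3 UMI and 149 CPM with 8 or more at E13.5. At E14.5 it was 407 and 198 CPM, and the neighbours were not split by Flt3. Of 18 genes of G2 and M phase 17 were lower in members in both libraries, with medians of -0.24 and -0.33, while depth was also lower in members (16663.5 against 18680 UMIs and 15810 against 19236 UMIs).

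These differences were graded with the number of Il7r UMIs. At E13.5 Ebf1 stood at 26.1 CPM with 0 Il7r UMIs, 43.8 CPM with 1, 52.6 CPM with 2, 75.4 CPM with 3 to 5 and 112 CPM with 6 or more, and Ighm at 250.2, 307, 335, 405 and 463 CPM. Id1 was lower with each step, from 61.8 to 18.6 CPM, and Id2 likewise, from 320.0 to 175 CPM. At E14.5 Ebf1 went from 106 to 270.5 CPM, Rag2 from 39.6 to 76.8 CPM and Id2 from 185 to 89.9 CPM between the first and last step. Median depth went from 16663.5 to 21605.5 UMIs at E13.5 and from 15810 to 23752 UMIs at E14.5 along these steps. Flt3, a gene of the rule, was nearly level, at 223 and 254 CPM at the ends of the E13.5 series and 216 and 203 CPM at E14.5.

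**Figure D5:**
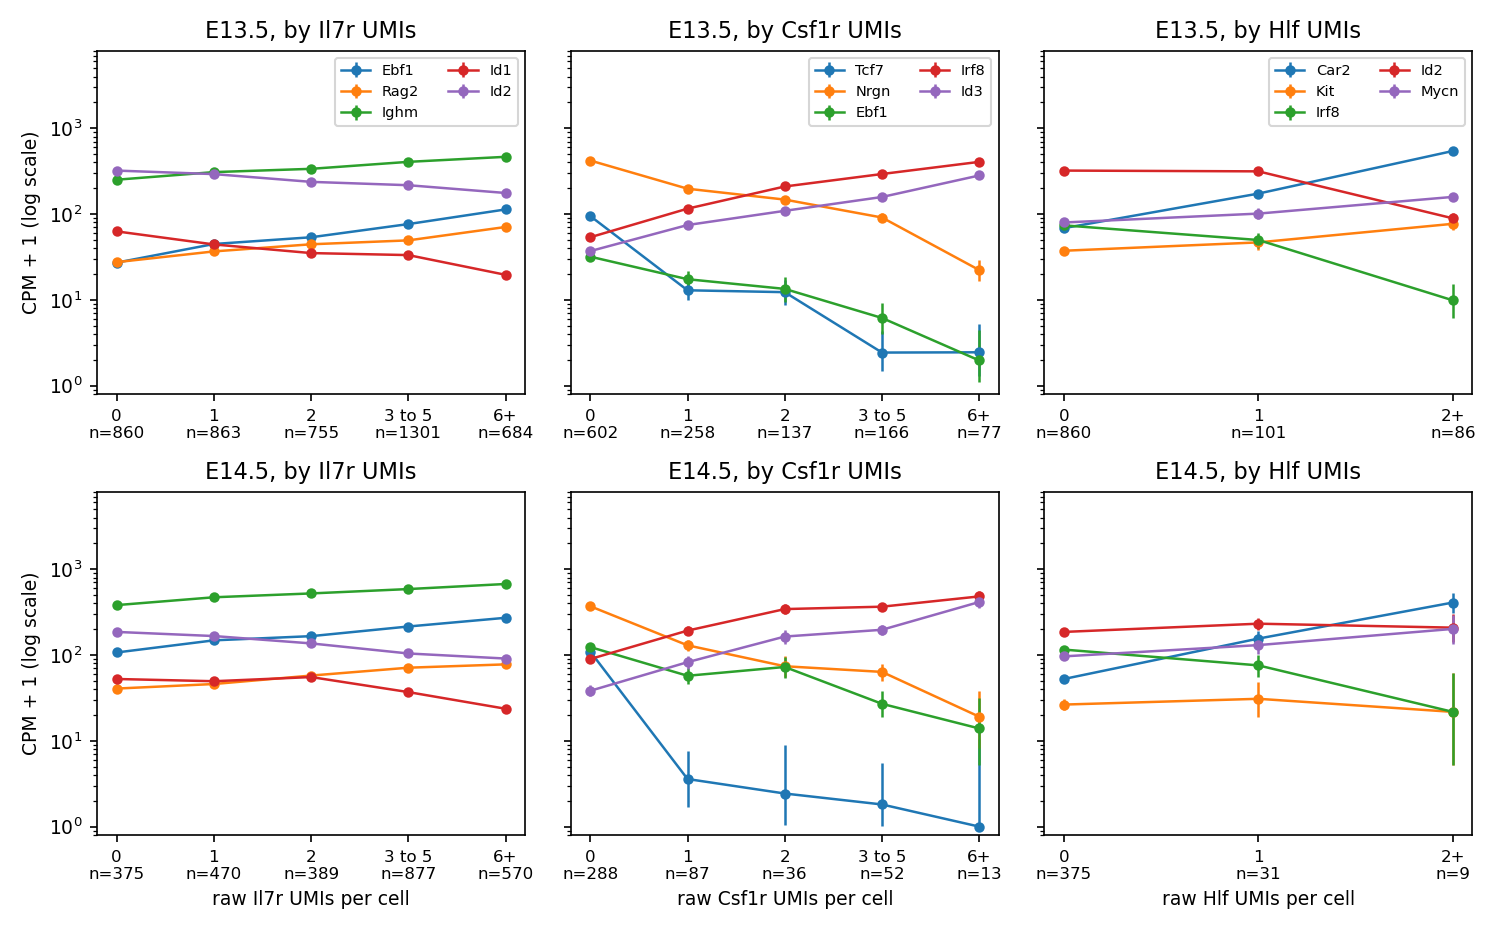
CPM + 1 (log axis) of selected genes in cells that meet every other criterion, by the number of Il7r, Csf1r or Hlf UMIs, at E13.5 (top) and E14.5 (bottom), with the number of cells under each step and 95% Poisson intervals. Ebf1 and Ighm step up with Il7r, Tcf7 and Nrgn step down and Irf8 up with Csf1r, and Car2 steps up with Hlf.

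Csf1r-high neighbours, with at least 2 Csf1r UMIs and all other criteria met, numbered 380 and 101. Of 7423 genes 27 (0.364%) were at least 2-fold higher in members and 23 (0.31%) at least 2-fold lower in both libraries. Tcf7, which encodes the T cell and innate lymphoid factor TCF1, was at 67.1 CPM in members against 4.62 CPM at E13.5 and at 81.9 against 0.863 CPM at E14.5. Nrgn, which encodes neurogranin, was at 347 against 91.0 CPM and 308 against 58.3 CPM, and Ebf1 at 26.1 against 6.44 CPM and 106 against 37.6 CPM. Lower in members were monocyte genes, 9 of 10 measured in both libraries and 5 by at least 2-fold. Irf8, which directs monocyte and dendritic fate, was at 72.8 against 293 CPM and 115 against 377 CPM, Ms4a6c at 5.06 against 39.5 CPM and 13.54 against 119 CPM, and the chemokine receptor gene Ccr2 at 21.2 against 63.4 CPM and 12.9 against 58.7 CPM. Id3, another inhibitor of E proteins, was at 48.2 against 172 CPM and 48.4 against 222 CPM.

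The members themselves contained part of this gradient, since the rule admits 1 Csf1r UMI. At E13.5 the 602 members without Csf1r held 93.7 CPM of Tcf7 (87.7 to 99.996) and the 258 members with 1 UMI 11.9 CPM (9.01 to 15.5), about the 11.3 CPM of cells with 2. At E14.5 the values were 109 CPM in 288 members without Csf1r and 2.59 CPM (0.705 to 6.62) in 87 with 1 UMI. Irf8 was at 52.7 and 115 CPM in the same members at E13.5 and at 88.8 and 191 CPM at E14.5, and Mpo at 643 and 989 CPM and at 443 and 758 CPM. Nrgn was at 419 and 196 CPM and at 369 and 129 CPM. For Tcf7, members with 1 Csf1r UMI were thus nearer to the cells just outside the rule than to the other members.

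Hlf-positive neighbours were few, 187 at E13.5 and 40 at E14.5. Of 7434 genes 4 (0.0538%) were at least 2-fold higher and 2 (0.0269%) at least 2-fold lower in members in both libraries. Car2, a carbonic anhydrase gene of early and erythroid progenitors, was lower in members, at 67.6 against 350.1 CPM and 51.5 against 203 CPM (log2 folds -2.27 and -1.86). Angpt1, which encodes angiopoietin 1, was at 17.2 against 45.1 CPM and 14.4 against 29.4 CPM, and Mycn at 78.7 against 128 CPM and 95.4 against 143 CPM. Higher in members were S100a9 and Elane, the chemokine gene Ccl3 (96.6 against 46.1 CPM and 90.2 against 33.5 CPM) and Irf8 (72.8 against 29.6 CPM and 115 against 64.2 CPM). Few members held the first 2 genes: S100a9 UMIs came from 39 of 860 members at E13.5 and 14 of 375 at E14.5, and Elane UMIs from 30 and 14. At E13.5, Car2 stood at 67.6 CPM with 0 Hlf UMIs, 172 CPM with 1 and 542 CPM with 2 or more, Kit at 36.3, 45.7 and 75.9 CPM, and Irf8 at 72.8, 48.8 and 8.87 CPM. With 2 or more Hlf UMIs Id2 was at 88.1 CPM, against 313 CPM with 1 and 320.0 CPM in members. At E14.5 only 9 cells had 2 or more Hlf UMIs, with Car2 at 408 CPM. There Id2 was at 207 CPM (139.9 to 296) against 185 CPM in members, and Kit at 20.7 CPM (4.28 to 60.6) against 25.4 CPM, so the E13.5 steps of these 2 genes were not seen. Genes of G2 and M phase were lower in members for 16 of 18 in both libraries, as they were against the Il7r-positive set and, for 15 of 18, against the Csf1r-high set, and depth was lower in the members than in all 3 sets at both stages.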

How the data were processed

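The deposited files are raw UMI counts per gene and barcode from 4 10x Genomics libraries, 1 per group, made by the authors with Cell Ranger, whose version per the file headers was 3.0.0 in the fetal liver pair and 3.0.1 in the periphery pair. The submitters' processing notes name Cell Ranger version 3 and mm10. The gene model release is not given in the sources used here. Barcodes with under 500 genes or over 10% mitochondrial UMIs were left out, and those left held 211700791 UMIs at E13.5 and 207419201 at E14.5 in fetal liver.

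Counts were summed over the cells of a set and divided by the set's total to give CPM. Log2 folds were taken after adding 5 CPM to both sides, over genes with at least 10 CPM on either side, with the all-gene median taken off and the 6 genes of the rule left out. Intervals are 95% exact Poisson intervals for CPM and Clopper-Pearson intervals for shares. Shares with a UMI were also computed after thinning each cell to 5000 UMIs (seed 1). Named genes are the 15 highest and 15 lowest between stages among genes with at least 20 CPM and intervals apart, the 10 highest and 10 lowest against each neighbour set by the smaller fold of both libraries, the 15 with the highest variance to mean ratio, and measured genes of the lists as examples. Genes of the rule, ribosomal protein, mitochondrial and haemoglobin genes and unnamed gene models were not eligible. The members and lists were chosen with earlier results of these data known. Doublets were called with Scrublet in scanpy 1.11.5 at its automatic threshold and kept, with an alternative that leaves them out. Calculations used Python 3.11.15, numpy 2.4.6, scipy 1.17.1 and pandas 2.3.3, and the scripts were tested on simulated data. Alternatives changed the pseudocount, the minimum level, the averaging, the scaling, the doublets and the rule. 1 marker of the lists is not reported here.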

Additional observations from a re-analysis of the deposited data

Results flagged for a closer look

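Hdc, the histidine decarboxylase gene of basophils and mast cells, had opposite directions in 2 sets of cells. Its log2 fold between stages was -1.19 in the members (21.8 CPM at E13.5 and 6.69 CPM at E14.5) and 1.31 in the other fetal liver barcodes. The difference between these sets was not tested. Only 6.28% of members at E13.5 and 4% at E14.5 held an Hdc UMI.

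A signal was also present in libraries outside the comparisons. In the embryonic periphery 141 of 4305 barcodes at E13.5 met the same rule (3.28%, 95% interval 2.76 to 3.85), and 2 of 4505 at E14.5. No control library sets a background for this count, and tissue and kit version cannot be told apart.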

How the results depend on the processing

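No paired analysis was possible because each group is 1 library and no replicate numbers exist. The member shares at E13.5 and E14.5 were 21.4 and 8.24% on thinned cells, 6.14 and 2.31% with at least 2 UMIs of Flt3 and of Cd34, and 5.66 and 2.46% with 0 Csf1r UMIs. Counts of genes past 2-fold moved with several settings, and the cause was not tested beyond what each setting changes by construction. With a pseudocount of 1 CPM they were 35 higher and 16 lower between stages, 7 higher against Hlf-positive, 2 lower against Il7r-positive, and 46 higher and 38 lower against Csf1r-high cells. With 20 CPM they were 9 and 1 between stages, 2 and 1 against Hlf-positive, 0 lower against Il7r-positive, and 7 and 6 against Csf1r-high cells. With a minimum of 50 CPM they were 8 and 1, 1 and 1, 3 and 0, and 8 and 8 in the same order. With the mean of CPM per cell 4 were lower against Hlf-positive and 0 against Il7r-positive cells. Without Scrublet doublets 7 were higher against Hlf-positive cells. With at least 2 UMIs of Flt3 and of Cd34, 3 were lower between stages, 2 higher against Hlf-positive, and 0 higher and 3 lower against Il7r-positive cells. Of the 30 genes named between stages, 25 of the 27 with a value kept their sign under that rule, the exceptions being S100a8 and S100a9. The sizes held less well. Of the 15 named genes past 2-fold in the main setting and with a value under that rule, 11 stayed past 2-fold. With a pseudocount of 20 CPM 10 of 18 did. The pair of Ighm and Mpo, chosen after seeing the data, was found in 52.0 and 58.7% of members thinned to 10000 UMIs and 59.3 and 64.3% unthinned. At the median member depth, 1 UMI limits what a 0 can show for a single cell.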

Other observations

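The 141 periphery barcodes at E13.5 that met the rule were measured in another tissue and with another kit version, so levels are given side by side with no fold. In them Flt3 stood at 144 CPM, Cd34 at 373 CPM, Mef2c at 307 CPM and Spi1 at 222 CPM. Ighm was at 275.5 CPM, Id2 at 173 CPM, Ccr9 at 107 CPM and Tcf7 at 64.6 CPM. Mpo was at 43.8 CPM, where fetal liver members of the same stage held 756 CPM, Prtn3 at 33.4 against 351 CPM, and Hmga2 at 139.6 against 569 CPM. Elane, S100a9 and Dntt had 0 UMIs there.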
